A study of Mus musculus with 126 samples.

Results

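The 9 genes described here encode the replacement, or replication-independent, core histone variants of the mouse that lie outside the replication-dependent histone clusters and carry their older symbols in the count table. They are H3f3a and H3f3b, which both encode H3.3, Cenpa, the centromeric H3 variant, H2afz and H2afv, which encode H2A.Z.1 and H2A.Z.2, H2afx, which encodes H2A.X, H2afy and H2afy2, which encode macroH2A1 and macroH2A2, and H2afj, which encodes H2A.J. The rule takes them by gene name and uses no measured value, although the list was drawn up with earlier results of these data known. All 9 were found among the 23420 genes of the table, and all 9 were among the 15822 genes that had enough reads to be tested.

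RNA was measured in J1 mouse embryonic stem cells, a pluripotent line kept here on gelatin, in medium with serum and the cytokine LIF. Wild type cells were compared with a TKO line in which Dnmt1, Dnmt3a and Dnmt3b, the genes of the DNA methyltransferases, were each homozygous null (Dnmt1-/-, Dnmt3a-/-, Dnmt3b-/-). Each genotype received either trichostatin A (TSA), an inhibitor of histone deacetylases, at 5 ng/µl for 36 h, or 0.0033% DMSO, its solvent, for the same time. The 4 groups held 2 biological replicates each, and the comparisons address how histone acetylation and DNA methylation bear on expression, separately and together. The 8 RNA libraries were 8 of the 126 samples of the series, and the other samples were not analysed here. Whether the TKO line was 1 clone is not given in the sources used here.

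Most core histones are made in bulk during DNA replication, from clustered genes whose messages lack a poly(A) tail. Replacement variants are instead mostly transcribed through the cell cycle from separate genes with introns or polyadenylated messages, and dedicated chaperones place them in chromatin. H3.3 is placed at active genes by the HIRA complex and at heterochromatin by ATRX and DAXX, H2A.Z is placed at promoters by the SRCAP and EP400 complexes, and macroH2A carries a large extra domain and is associated with silent chromatin. In embryonic stem cells, H3.3 and H2A.Z are known for their place at promoters and enhancers, and macroH2A rises as these cells differentiate.

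Genes that encode forms of the same variant did not all pass the test with TSA in the same direction. Of the H3.3 genes, H3f3b rose and H3f3a fell in both genotypes. Of the H2A.Z genes, H2afz fell in both genotypes while H2afv did not pass the test. Of the macroH2A genes, H2afy2 fell from 16.7 ± 0.76 to 5.65 ± 0.21 normalised CPM in wild type and from 17.4 ± 0.76 to 5.95 ± 0.96 in TKO cells (each SD over n = 2), while H2afy did not pass the test in either genotype. The sequences before the transcription starts of the H3.3 and H2A.Z genes are shown because the members of these pairs encode the same or a nearly identical protein and H3f3b and H3f3a were called in opposite directions, while of the H2A.Z pair only H2afz was called. The difference within a pair is described through its shares, given further on, whose permutation test could not reach the adjusted threshold with these libraries. Each is the 250 bases that precede the RefSeq start on the gene's own strand (GRCm38.p6, the patched form of mm10, the build of the count table), at chr11:116024505-116024754 (minus strand) for H3f3b, chr1:180813606-180813855 (minus strand) for H3f3a, chr3:137864237-137864486 (plus strand) for H2afz and chr11:6444444-6444693 (minus strand) for H2afv. Capitals mark every complete match to the motifs named in the next paragraph, on either strand.
H3f3b: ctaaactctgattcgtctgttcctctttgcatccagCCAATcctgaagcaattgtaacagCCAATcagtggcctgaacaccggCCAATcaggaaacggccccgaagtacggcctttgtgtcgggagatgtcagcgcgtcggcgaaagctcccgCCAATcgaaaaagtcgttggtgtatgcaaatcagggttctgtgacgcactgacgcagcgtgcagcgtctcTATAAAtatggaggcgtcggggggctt
H3f3a: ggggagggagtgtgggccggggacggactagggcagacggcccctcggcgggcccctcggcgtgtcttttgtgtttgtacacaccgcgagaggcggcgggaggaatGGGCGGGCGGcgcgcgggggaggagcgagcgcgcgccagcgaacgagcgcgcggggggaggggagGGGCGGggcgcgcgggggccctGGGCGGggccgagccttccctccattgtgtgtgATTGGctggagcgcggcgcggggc
H2afz: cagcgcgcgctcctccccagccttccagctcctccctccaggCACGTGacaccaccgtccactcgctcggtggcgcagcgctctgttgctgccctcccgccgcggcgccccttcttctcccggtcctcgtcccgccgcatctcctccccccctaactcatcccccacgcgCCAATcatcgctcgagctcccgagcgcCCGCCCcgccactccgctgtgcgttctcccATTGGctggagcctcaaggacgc
H2afv: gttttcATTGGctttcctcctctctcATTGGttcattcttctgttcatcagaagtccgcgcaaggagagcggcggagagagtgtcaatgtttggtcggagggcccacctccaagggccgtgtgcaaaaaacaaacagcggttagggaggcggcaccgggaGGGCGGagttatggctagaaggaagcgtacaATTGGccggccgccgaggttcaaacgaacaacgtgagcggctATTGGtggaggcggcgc

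RefSeq's table held a promoter for 8 of the 9 members, and not for H2afx. Motifs were searched on both strands from 250 bases before to 50 after each start, and shares of all 32851 promoters of that length are given as background. The letters CCAAT, known as the motif of the factor NF-Y, were found in 37.4% of all promoters. The letters GGGCGG, the motif of the factor SP1, were in 35.7%. The letters TATAAA, which mark the core element of some promoters, were in 13.6%, and the letters CACGTG, the motif of the factor MAX, were in 7.15%. Of the rarer motifs, CCGGAAGT (for the factor GABPA) was in 3.89%, GCATGCGC (for the factor NRF1) in 2.71%, ATGGCGGC (for the factor YY1) in 2.24% and TGACGTCA (the cyclic AMP response element) in 1.79%. The H3f3b window held 4 matches to the NF-Y motif and a TATA motif whose first base lay at -27, and no SP1 motif. The H3f3a window held 1 NF-Y motif and 6 SP1 motifs, some of which overlap one another. The H2afz window held 3 NF-Y motifs, 2 SP1 motifs and a MAX motif, and the H2afv window held 4 NF-Y motifs and 1 SP1 motif. The numbers of CpG dinucleotides in these 300 bases were 24 for H3f3b, 39 for H3f3a, 34 for H2afz and 27 for H2afv, against a median of 7 (quartiles 3 and 20) over all promoters. The RefSeq start of H2afz lies 112 bases before the first exon of the deposited annotation. Matches to letters are a description of these windows only.

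Levels below are CPM, that is counts scaled to a common library total, after TMM normalisation, which corrects those totals. A change is a log2 fold change from edgeR's quasi-likelihood test, fitted to all 8 libraries, given with its standard error (SE). A gene was called at a Benjamini-Hochberg adjusted p below 0.05 over all genes tested. Totals ran from 13280631 to 15542527 counts per library, so that 3 counts, the limit that a count of 0 allows, came to 0.183 to 0.243 normalised CPM, and that limit covers counting error only. Members had between 81 counts (H2afy2) and 20571 counts (H3f3b) in a library. The targeted genes were lower in the libraries labelled TKO but not at 0: Dnmt1 lay at 123 to 135 normalised CPM there against 360 to 464 in wild type, Dnmt3a at 25.9 to 39.1 against 152 to 237, and Dnmt3b at 43.7 to 76.1 against 343 to 596. These counts cover the whole gene, and the deleted exons were not examined apart.

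The pairs H3f3a and H3f3b, and H2afz and H2afv, share coding sequence and have processed copies elsewhere in the genome. How reads with several matches were counted is not given in the sources used here, so each level of these genes carries that uncertainty. Per kilobase of exon, the scale used to compare genes, the order of the mean levels in wild type DMSO was H2afx (266 normalised CPM per kilobase), H3f3b (263), Cenpa (82.3), H2afz (79.1), H3f3a (70.2), H2afv (43.9), H2afy (39.9), H2afj (30.0) and H2afy2 (8.73). The libraries of H2afx and H3f3b overlapped, as did those of Cenpa and H2afz and of H2afz and H3f3a, and the other neighbours did not. In TKO DMSO, H3f3b (306) already stood above H2afx (236) with no overlap. With TSA, H3f3b stood first in wild type too, at 372, and at 632 in TKO cells. H2afz (43.2 and 43.1 in wild type and TKO cells) stood below H2afv (47.8 and 48.0) with TSA, and above it in DMSO in both genotypes.

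**Figure D1:**
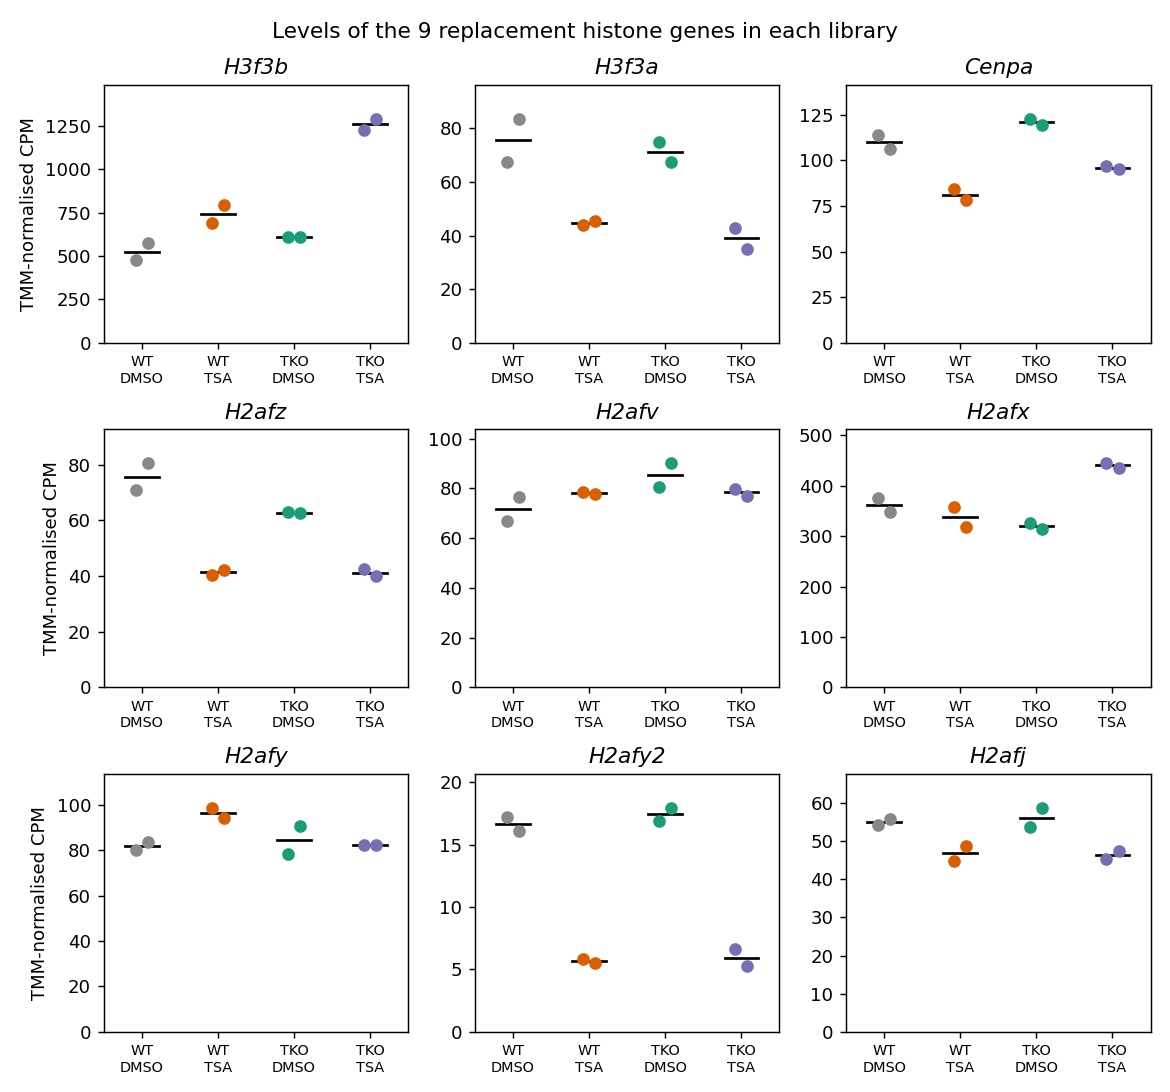
Normalised CPM of each of the 9 genes (vertical axes, each from 0, with its own scale) in the 4 groups (horizontal axes); points are libraries and bars are means of 2. H3f3b was highest in TKO cells with TSA, at 1225 and 1292, and H2afy2 lay at 5.27 to 6.63 in the 4 TSA libraries against 16.1 to 18.0 in the 4 DMSO libraries.

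Against DMSO, TSA changed 5 of the 9 members in wild type cells: 1 was higher and 4 were lower. Over all tested genes 27.0% were called higher and 25.9% lower in that comparison. In TKO cells TSA changed 7 of the 9, with 2 higher and 5 lower, where the shares of all genes were 30.8% and 27.9%. The median log2 fold change of the members was -0.23 in wild type and -0.28 in TKO cells, against 0.01 and 0.04 over all tested genes. In 8 of the 9 members the TSA and DMSO libraries did not overlap, in wild type as in TKO cells. Over all tested genes 77.0% had no overlap in wild type and 82.0% in TKO cells, so the members' count lies near the background. Normalised levels are relative to the rest of a library, and when libraries were scaled by total counts alone the median of all genes was 0.22 in wild type and 0.19 in TKO cells.

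H3f3b, on chromosome 11 (chr11:116021961-116024504, minus strand, mm10), was the most highly read member. It read 475 and 572 normalised CPM in the wild type with DMSO and 689 and 795 with TSA, and 610 and 608 in the TKO line with DMSO and 1225 and 1292 with TSA. The TSA libraries were higher in each genotype with no overlap, and those of TKO TSA stood far above all others. TSA raised H3f3b 1.42-fold in wild type cells (log2 0.50 ± 0.11 SE, adjusted p = 0.00264) and 2.07-fold in TKO cells (log2 1.05 ± 0.11 SE, adjusted p = 1.96e-05).

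H3f3a, on chromosome 1 (chr1:180802568-180813603, minus strand), encodes the same H3.3 protein. It read 67.4 and 83.6 normalised CPM in the wild type with DMSO and 43.9 and 45.5 with TSA, and 74.7 and 67.6 in the TKO line with DMSO and 42.9 and 35.2 with TSA. All 4 TSA libraries were below all 4 DMSO libraries. H3f3a fell 1.69-fold in wild type (log2 -0.76 ± 0.13 SE, adjusted p = 0.000791) and 1.82-fold in TKO cells (log2 -0.87 ± 0.13 SE, adjusted p = 0.000246). The summed level of both H3.3 genes per kilobase was 333 ± 45.2 and 372 ± 5.43 for wild type and TKO with DMSO and 414 ± 38.7 and 668 ± 18.4 with TSA (each SD over n = 2).

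Cenpa, on chromosome 5 (chr5:30666902-30674826, plus strand), encodes the H3 variant that marks the centromere. It read 114 and 106 normalised CPM in the wild type with DMSO and 84.1 and 78.1 with TSA, and 123 and 119 in the TKO line with DMSO and 97.0 and 95.1 with TSA. Each genotype's TSA libraries were below its DMSO libraries. Cenpa fell 1.36-fold in wild type (log2 -0.44 ± 0.09 SE, adjusted p = 0.00216) and 1.26-fold in TKO cells (log2 -0.34 ± 0.09 SE, adjusted p = 0.00796). The second call was lost without TKO DMSO replicate 1 (log2 -0.32, adjusted p = 0.0526) and with libraries scaled by total counts alone (log2 -0.19, adjusted p = 0.0894). Under that scaling the change in wild type was -0.24, still called.

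H2afz, on chromosome 3 (chr3:137864599-137866922, plus strand), encodes the H2A.Z form that the early embryo cannot do without. It read 70.9 and 80.6 normalised CPM in the wild type with DMSO and 40.5 and 42.3 with TSA, and 62.8 and 62.7 in the TKO line with DMSO and 42.4 and 40.1 with TSA. The 4 TSA libraries lay within a narrow band below every DMSO library. H2afz fell 1.83-fold in wild type (log2 -0.87 ± 0.10 SE, adjusted p = 7.77e-05) and 1.52-fold in TKO cells (log2 -0.61 ± 0.10 SE, adjusted p = 0.000502).

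H2afv, on chromosome 11 (chr11:6427226-6444443, minus strand), encodes the other H2A.Z form. It read 66.8 and 76.8 normalised CPM in the wild type with DMSO and 78.6 and 77.7 with TSA, and 80.6 and 90.2 in the TKO line with DMSO and 79.9 and 77.0 with TSA. TSA libraries were just above DMSO libraries in wild type and just below them in TKO cells. Neither difference passed the test (log2 0.12 ± 0.10 SE, adjusted p = 0.331, and log2 -0.12 ± 0.10 SE, adjusted p = 0.323). With total counts as the scaling, the first was 0.33 and was called (adjusted p = 0.0198), and the second turned to 0.02. The summed level of both H2A.Z genes per kilobase was 123 ± 11.5 and 118 ± 4.10 for wild type and TKO with DMSO and 91.0 ± 0.94 and 91.0 ± 3.01 with TSA (each SD over n = 2).

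H2afx, a gene of 1 exon on chromosome 9 (chr9:44334715-44336073, plus strand), encodes the variant that is phosphorylated at DNA breaks. It read 375 and 349 normalised CPM in the wild type with DMSO and 357 and 318 with TSA, and 326 and 315 in the TKO line with DMSO and 445 and 436 with TSA. TKO TSA was the highest group, and the wild type groups overlapped. TSA raised H2afx 1.38-fold in TKO cells (log2 0.46 ± 0.09 SE, adjusted p = 0.00120), while the value in wild type was -0.10 ± 0.09 SE and was not called (adjusted p = 0.363). The wild type value turned to 0.10 with total counts as the scaling.

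The macroH2A genes lay far apart in level. H2afy, on chromosome 13 (chr13:56073622-56135550, minus strand), read 80.4 and 83.5 normalised CPM in the wild type with DMSO and 98.9 and 94.4 with TSA, and 78.3 and 90.8 in the TKO line with DMSO and 82.3 and 82.2 with TSA. The wild type TSA libraries were the highest. The change with TSA was 0.24 ± 0.10 SE on the log2 scale in wild type (adjusted p = 0.0607), which was called under 3 other scalings (0.25 with RLE size factors, 0.39 with the upper quartile and 0.44 with total counts, adjusted p = 0.0470, 0.00798 and 0.00349). In TKO cells it was -0.04 ± 0.10 SE (adjusted p = 0.738), and 0.11 with total counts.

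H2afy2, on chromosome 10 (chr10:61738647-61783864, minus strand), had the largest TSA changes of the 9 members in these fits. It read 17.2 and 16.1 normalised CPM in the wild type with DMSO and 5.80 and 5.50 with TSA, and 16.9 and 18.0 in the TKO line with DMSO and 6.63 and 5.27 with TSA. Every TSA library was below every DMSO library, and the genotypes overlapped within each treatment. H2afy2 fell 2.94-fold in wild type (log2 -1.56 ± 0.17 SE, adjusted p = 5.91e-05) and 2.93-fold in TKO cells (log2 -1.55 ± 0.17 SE, adjusted p = 3.02e-05). Aifm2, on the opposite strand, covers 12.5% of the exon bases of H2afy2, and whether counting used the strand is not given. Aifm2 itself was not called with TSA (log2 -0.13 ± 0.17 SE in wild type and 0.15 ± 0.16 SE in TKO cells, adjusted p = 0.547 and 0.440).

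H2afj, a gene of 1 exon on chromosome 6 (chr6:136808248-136810074, plus strand), encodes an H2A variant that differs from canonical H2A at few residues. It read 54.1 and 55.7 normalised CPM in the wild type with DMSO and 44.9 and 48.8 with TSA, and 53.6 and 58.8 in the TKO line with DMSO and 45.3 and 47.3 with TSA. All TSA libraries were below all DMSO libraries, by small margins. The change was -0.23 ± 0.10 SE on the log2 scale in wild type (adjusted p = 0.0813) and -0.28 ± 0.10 SE in TKO cells, where it was called (adjusted p = 0.0360). That call was lost under 8 of 15 alternatives: upper quartile scaling (-0.20), total counts (-0.13), DESeq2 (-0.27) and the omission of wild type TSA replicate 2 (-0.28), TKO DMSO replicate 1 (-0.35) or 2 (-0.22), or TKO TSA replicate 1 (-0.25) or 2 (-0.31).

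**Figure D2:**
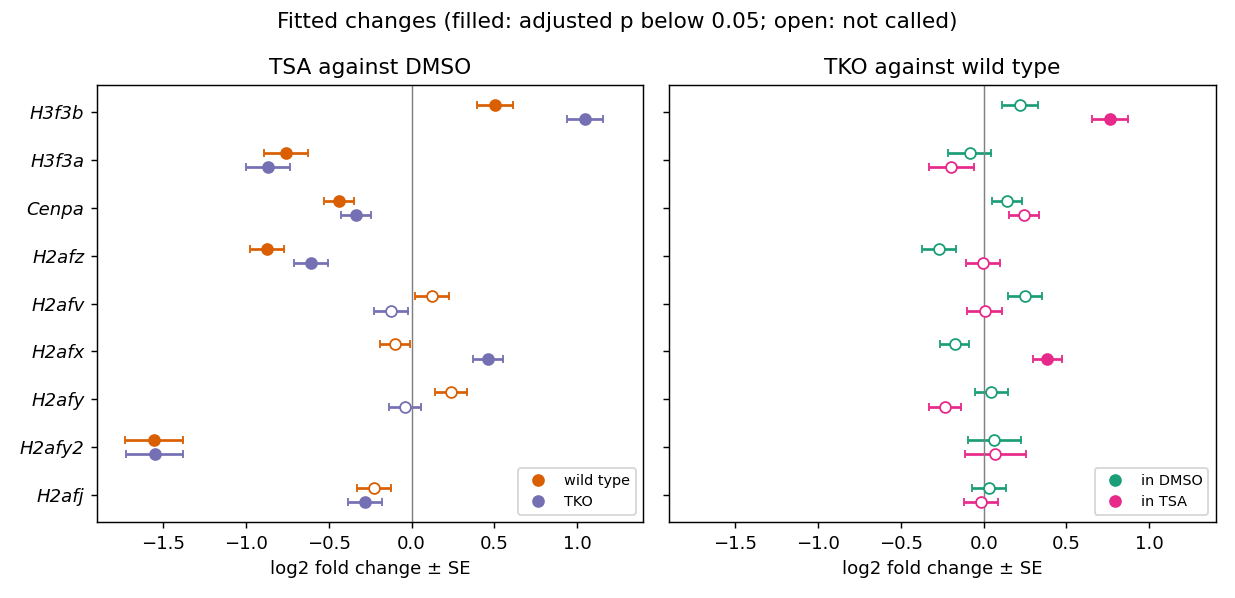
Log2 fold changes (horizontal axes) of the 9 genes with their SE as bars, for TSA against DMSO by genotype (left) and for TKO against wild type by treatment (right); filled points were called and open points were not. H3f3b and H2afx are the called points on the right, both in TSA (0.76 and 0.38).

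Between TKO and wild type cells in DMSO, the comparison of genotypes without the inhibitor, none of the 9 members was called. Of all tested genes 9.63% were called higher and 10.7% lower in TKO cells. At an unadjusted p below 0.05, 2 members passed, H2afz (log2 -0.27 ± 0.10 SE) and H2afv (log2 0.25 ± 0.10 SE), with adjusted p = 0.0854 and 0.113 in edgeR. DESeq2 called 0. Without wild type DMSO replicate 2, H3f3b was called in this comparison (log2 0.36, adjusted p = 0.0424) against 0.22 ± 0.11 SE with all libraries (adjusted p = 0.180).

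In TSA, 2 of the 9 members were higher in TKO than in wild type cells and none was called lower, where 10.0% of all genes were called higher and 8.38% lower. H3f3b was 1.70-fold higher (log2 0.76 ± 0.11 SE, adjusted p = 0.000978) and H2afx was 1.31-fold higher (log2 0.38 ± 0.09 SE, adjusted p = 0.0134). The H2afx call was lost without wild type TSA replicate 2 (log2 0.30, adjusted p = 0.115), TKO TSA replicate 1 (0.37, adjusted p = 0.0557) or TKO TSA replicate 2 (0.40, adjusted p = 0.0521). Cenpa was 0.24 ± 0.09 SE and not called (adjusted p = 0.0865), and was called with a gene length offset (log2 0.29, adjusted p = 0.0490).

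The difference between the TSA effects in the genotypes was tested as the interaction, the effect in TKO cells minus that in wild type. No member was called, and of all genes 0.879% were called with the TSA effect more positive in TKO cells and 0.468% with it more negative. At an unadjusted p below 0.05, 2 members passed: H2afx (log2 0.56 ± 0.13 SE, edgeR adjusted p = 0.0608) and H3f3b (log2 0.54 ± 0.15 SE, edgeR adjusted p = 0.117). DESeq2 called both (adjusted p = 0.0138 and 0.0423), as did an edgeR fit with a term for the replicate number, given in the last section. H2afx was also called with no filter on low counts (adjusted p = 0.0423) and without wild type DMSO replicate 2 (adjusted p = 0.0393). Over the 15 alternatives the adjusted p ran from 0.0138 to 0.262 for H2afx and from 0.0322 to 0.356 for H3f3b, and no alternative turned the sign of either value. H2afy2 was at 0.01 ± 0.24 SE, and the other 6 members lay between -0.28 (H2afy) and 0.27 (H2afz).

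Within a library, the share of one gene in its pair does not depend on how libraries are scaled. Shares were taken from counts per kilobase of exon and compared by an exact permutation test of 4 libraries against 4, two-sided, whose smallest possible p is 0.0286. The H3f3b share of H3.3 transcripts was 79.2% and 78.7% in the wild type with DMSO and 89.5% and 90.4% with TSA, and 81.5% and 82.9% in the TKO line with DMSO and 93.9% and 95.2% with TSA. It was higher with TSA in every library, by 11.0 percentage points in wild type and 12.3 in TKO cells. The H2afv share of H2A.Z transcripts was 35.5% and 35.8%, 53.2% and 51.8%, 42.9% and 45.7%, and 52.4% and 52.9% in the same order of groups. H2afv thus came to over 50% of H2A.Z transcripts in all 4 TSA libraries and stood below that in all 4 DMSO libraries, which holds for counts per kilobase: from counts alone it was already 56.2% and 59.0% in TKO DMSO. Its difference per kilobase was 16.8 points in wild type and 8.38 in TKO cells. The H2afy2 share of macroH2A transcripts was 18.7% and 17.2%, 5.93% and 5.90%, 18.8% and 17.5%, and 7.97% and 6.45%.

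The fourth share set both H3.3 genes against these plus the 12 replication-dependent H3 genes. H3.3 made up 11.7% and 13.1% of H3 transcripts in the wild type with DMSO and 18.8% and 21.6% with TSA, and 14.3% and 15.1% in the TKO line with DMSO and 30.8% and 33.6% with TSA. The TSA libraries were above the DMSO libraries of both genotypes, and the highest share was that of TKO cells with TSA. The size of this share depends on the division by exon length, since from counts alone it was 32.2% and 35.2% in the wild type with DMSO and 46.1% and 50.5% with TSA, and 63.0% and 65.4% in the TKO line with TSA. For all 4 shares the TSA and DMSO libraries did not overlap, and the exact permutation test gave p = 0.0286, the smallest it can give. Adjusted over the 8 tests of shares, this is 0.0571, which misses the 0.05 threshold. That is the lowest adjusted value these 8 tests could give, so the threshold was out of reach whatever the shares. The pooled differences were 11.7, 12.6, -11.5 and 12.7 points for H3f3b, H2afv, H2afy2 and H3.3. Between genotypes, with both treatments in each set of 4 libraries, the exact permutation p ran from 0.286 to 0.6 before adjustment and every share overlapped. Within each treatment, however, the H3f3b share of H3.3 and the H3.3 share of H3 were higher in both TKO libraries than in both wild type libraries, and 2 libraries against 2 cannot give an exact permutation p below 0.333. The H2afv share was likewise higher in TKO cells in DMSO, and overlapped in TSA. The H2afy2 share overlapped in DMSO and was higher in TKO cells in TSA (7.97% and 6.45% against 5.93% and 5.90%). Libraries were made from total RNA depleted of ribosomal RNA, so messages without a poly(A) tail were kept, but near-identical clustered histone genes share reads. Among such genes Hist1h2bq, Hist1h2br and Hist2h2aa1 had no reads in any group. The H3 genes Hist2h3c1 and Hist2h3c2 averaged only 3.98 to 9.71 normalised CPM by group. Whether reads of such copies are missing from the H3 total, which would raise the H3.3 share, was not tested.

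**Figure D3:**
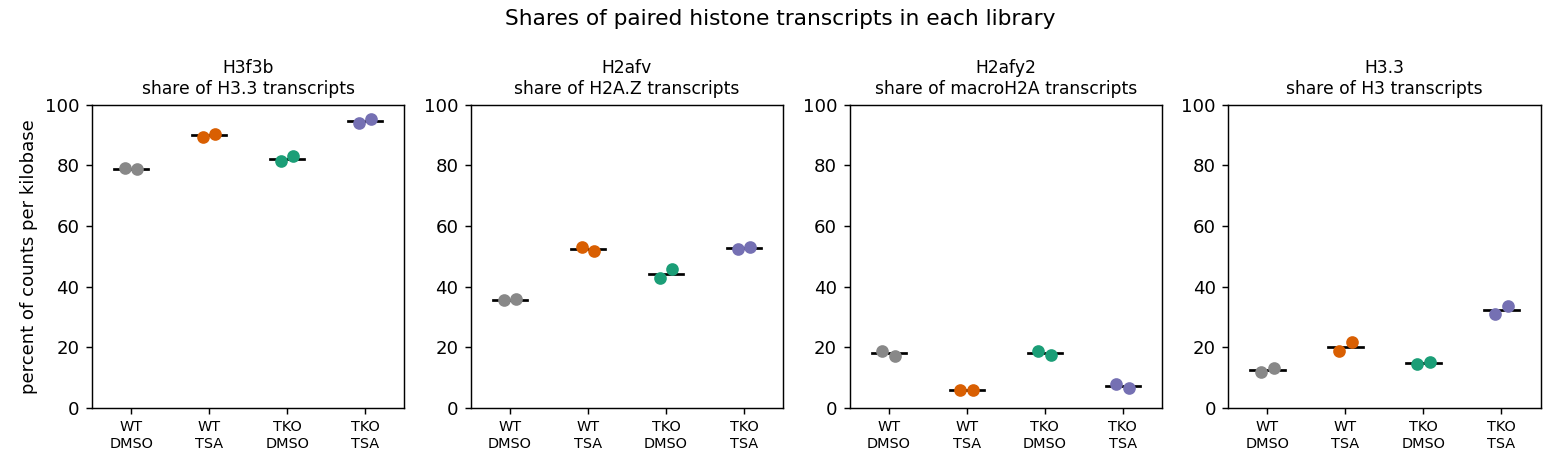
Percent of transcripts (vertical axes, 0 to 100, from counts per kilobase) that came from H3f3b, H2afv, H2afy2 or both H3.3 genes in each library, by group; bars are means of 2 libraries. H3f3b, H2afv and H3.3 stood higher in all 4 TSA libraries than in any DMSO library, and H2afy2 stood lower.

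The replication-dependent core histone genes, from the same libraries, give the setting for these values. Of 62 such genes by name, 55 were tested, and with TSA 4 were higher and 34 lower in wild type and 5 higher and 37 lower in TKO cells. Their median log2 fold change was -0.54 and -0.56, against -0.23 and -0.28 for the 9 replacement variants. Among the 12 H3 genes, 7 were lower with TSA in wild type and 9 in TKO cells, and none was higher. The 62 genes include 2 of a list of 6 germline core variants. On that list 4 genes were in the table and 3 were tested, and all 3 were higher with TSA in both genotypes. Hist1h2ba, an H2B variant known from the testis, was read in every library, also without TSA. It went from 35.7 and 57.5 to 82.5 and 103 normalised CPM in wild type cells (log2 0.99 ± 0.21 SE, adjusted p = 0.00237). In TKO cells it went from 24.2 and 33.3 to 103 and 118 (log2 1.94 ± 0.22 SE, adjusted p = 2.87e-05). H2bfm, another gene of that list, had 0 and 6 counts in the wild type with DMSO and 18 and 41 with TSA, and 32 and 26 in the TKO line with DMSO and 333 and 314 with TSA.

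Genes listed for H3.3 deposition, which include general H3-H4 chaperones, were mostly lower with TSA. Of 10 genes, 1 was higher and 7 were lower in wild type, and 1 was higher and 6 lower in TKO cells. Nasp, a chaperone of free H3 and H4, fell by 0.85 ± 0.09 SE on the log2 scale in wild type (adjusted p = 3.61e-05) and by 0.91 ± 0.09 SE in TKO cells (adjusted p = 1.16e-05). Asf1b, an H3-H4 chaperone active in proliferating cells, was the 1 gene called higher (log2 0.48 ± 0.09 SE and 0.62 ± 0.09 SE, adjusted p = 0.00152 and 0.000227), while Asf1a, which hands H3.3 to the HIRA complex, fell by 0.76 ± 0.10 SE in wild type (adjusted p = 0.000153), and Ubn2, a HIRA partner, fell by 0.80 ± 0.10 SE in TKO cells (adjusted p = 6.85e-05).

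Of the genes that place or remove H2A.Z, 13 of 14 listed were in the table, and Srcap was not analysed here. None was higher and 8 were lower with TSA in wild type, and 1 was higher and 10 were lower in TKO cells, where Ep400 was the 1 called higher. Ino80, the ATPase of a complex that removes H2A.Z, had the largest changes of the list, at -1.02 ± 0.12 SE in wild type (adjusted p = 7.57e-05) and -1.42 ± 0.12 SE in TKO cells (adjusted p = 5.94e-06). Nap1l1, a chaperone of H2A and H2B, fell by 0.96 ± 0.12 SE in wild type (adjusted p = 9.70e-05), and Actl6a, a subunit shared by several remodelling complexes, fell by 0.94 ± 0.10 SE in TKO cells (adjusted p = 2.48e-05). In DMSO, Ino80 was higher in TKO than in wild type cells (log2 0.58 ± 0.12 SE, adjusted p = 0.00594).

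For CENP-A, 10 genes of deposition and of the centromere were listed, of which 3 were lower with TSA in wild type and 4 in TKO cells. None was higher, and the other 7 and 6 were not called. Over all tested genes 25.9% and 27.9% were called lower, so these counts lie not far from the background. Cenpk, of the inner kinetochore, fell by 0.79 ± 0.22 SE and by 0.88 ± 0.22 SE (adjusted p = 0.0103 and 0.00509), and Oip5, of the Mis18 complex, fell by 0.38 ± 0.13 SE and by 0.55 ± 0.13 SE (adjusted p = 0.0265 and 0.00353). In DMSO, 2 were lower in TKO cells, Cenpn (log2 -0.63 ± 0.09 SE, adjusted p = 0.00108), which binds the CENP-A nucleosome, and Cenpt (log2 -0.60 ± 0.13 SE, adjusted p = 0.00722).

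Of 9 genes of signalling on H2A.X, 6 were lower with TSA in each genotype and none was higher, which for TKO cells is the opposite of H2afx. In TKO cells Mdc1, which binds phosphorylated H2A.X, fell by 0.53 ± 0.09 SE (adjusted p = 0.000386) and Atm, a kinase that phosphorylates it, fell by 0.52 ± 0.09 SE (adjusted p = 0.000483). Of the 6 genes of FACT and CAF-1, general chaperones of H2A-H2B and of replication-coupled H3, 1 was higher and 3 were lower in each genotype. Rbbp7 was the higher one (log2 0.69 ± 0.11 SE and 0.58 ± 0.11 SE, adjusted p = 0.000425 and 0.000933), and Supt16, of FACT, was lower (log2 -0.58 ± 0.08 SE and -0.47 ± 0.08 SE, adjusted p = 0.000259 and 0.000653). No gene of these lists was called in the interaction. Between genotypes in DMSO, 1 of the 9 H2A.X genes was higher in TKO cells and 2 of the 6 of FACT and CAF-1 were lower. None of the 10 genes for H3.3 deposition was called there. In TSA, 2 H2A.X genes and 2 of FACT and CAF-1 were lower in TKO cells. For H3.3 1 was higher, for H2A.Z 1 was higher and 2 lower, and for CENP-A 1 was lower.

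**Figure D4:**
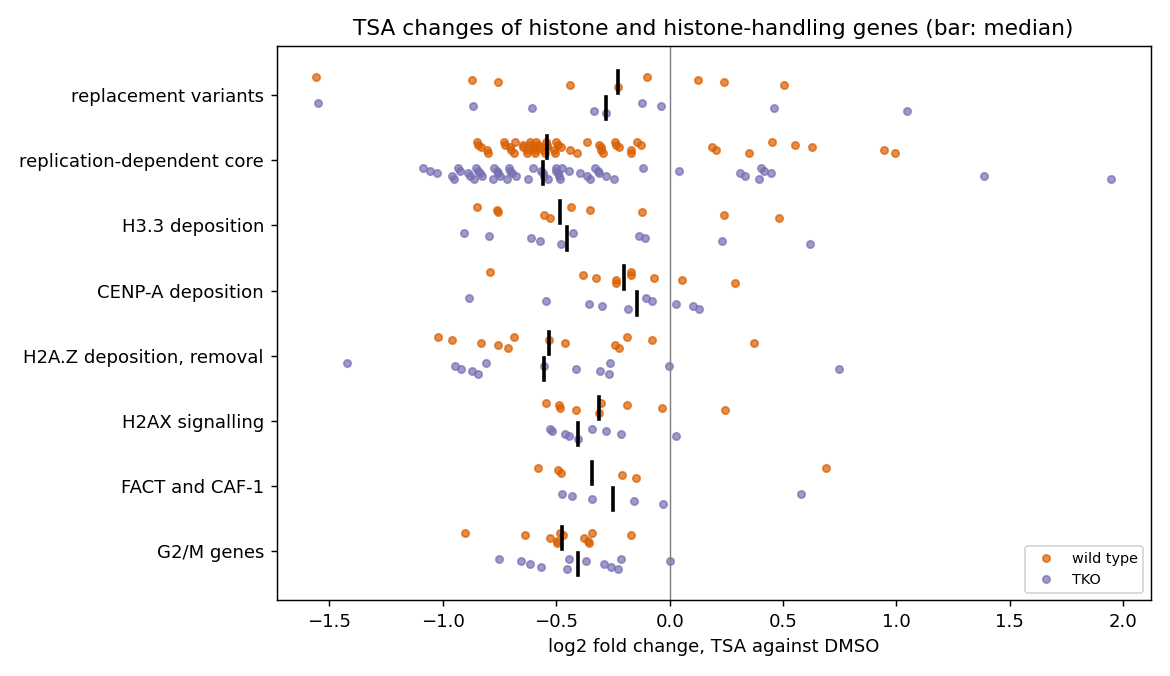
Log2 fold change with TSA (horizontal axis) of every tested gene in 8 lists (rows), in wild type and TKO cells; each point is a gene and each black bar a list's median. The 9 replacement variants spread from -1.56 to 1.05, and the medians of all 8 lists lay below 0 in both genotypes.

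Other signs of cell state moved with TSA in the same libraries. Of 12 genes of G2 and mitosis, 11 were lower in each genotype (medians -0.48 and -0.41), and their summed level was 4818 to 5488 normalised CPM in the DMSO libraries and 3611 to 4092 in the TSA libraries. All 8 pluripotency markers were detected in every library, and 7 were lower with TSA in each genotype, with summed levels of 3054 to 4228 in DMSO and 1593 to 1945 in TSA. Of 5 trophoblast markers, 4 were higher in wild type and 5 in TKO cells with TSA, with sums of 39.7 to 56.9 in DMSO and 167 to 257 in TSA. Most of each sum was Tfap2c, whose means were 38.1 and 43.8 in wild type and TKO DMSO and 124 and 203 with TSA. Eomes did not rise in wild type (means 7.84 and 5.54), and 1 of these markers was at 0 in 1 wild type DMSO library. Of 5 neural markers, 4 were lower in wild type and 3 in TKO cells with TSA, and 1 was higher in each. Of 6 primitive endoderm markers 2 were higher with TSA in each genotype (medians 0.34 and -0.11). That is near the 27.0% and 30.8% of all tested genes called higher. In DMSO, 5 of the 6 were higher in TKO than in wild type cells, against 9.63% of all tested genes. These 6 were low, with sums of 13.8 and 16.4 in wild type DMSO and 36.1 and 38.0 in TKO DMSO. Pdgfra is on this list and on the next. Of 8 fibroblast or mesenchymal markers, 3 were higher and 3 lower with TSA in wild type, 5 were higher and none lower in TKO cells, and 2 were called higher in the interaction. Between genotypes, 5 of these markers were lower and 1 higher in TKO cells in DMSO, and 4 were lower and 1 higher in TSA. Their sums were 461 to 815 in the wild type libraries and 245 to 335 in the TKO libraries. Much of that difference was Tagln, which varied widely between wild type replicates. Its means were 252 ± 140 and 297 ± 152 in wild type DMSO and TSA (each SD over n = 2), against 14.1 and 4.81 in TKO cells. The part of all these genes and markers in the changes of the histone genes was not tested. In bulk RNA, fewer cells of a type and less RNA per cell cannot be told apart.

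For each member, the most similar genes over the 8 libraries were taken by Pearson's r of log2 CPM among 10024 genes that averaged 10 CPM or more. These values describe 4 groups of 2 libraries and share the libraries' scaling. H2afy2 was most like Epb4.1l4a (r = 0.999) and Pdgfc (0.998), H3f3a was most like Aasdhppt and Eif3a (both 0.995), and H3f3b was most like Dennd4c (0.994) and Tbc1d8b (0.991). Cenpa was most like Heatr2 (0.994) and Incenp (0.993), H2afz was most like Zfp759 and Mrrf (both 0.993), and H2afj was most like Gosr1 (0.981) and Zcchc10 (0.980). The likeness was lower for H2afv (Tex14 at 0.965, Vwa8 at 0.959), H2afx (Cadm1 at 0.956, Sdc1 at 0.949) and H2afy (Myof at 0.954, Nek9 at 0.898).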

How the data were processed

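Libraries were made from total RNA depleted of ribosomal RNA with a directional kit and sequenced in pairs, per the labels' protocols. The authors deposited 1 table of whole-number read counts per gene with exon coordinates and the exon length of each gene in bases. Per the submitters' processing notes, TopHat2 2.0.13, featureCounts 1.4.5-p1, edgeR 3.22.3 and mm10 were used; strand and multiple-match settings are not given in the sources used here. Replicates differed beyond sampling noise (chi-square per degree of freedom 5.17 to 11.7), so each was counted.

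Counts were tested here with edgeR 4.0.16 (R 4.3.3): filterByExpr, TMM, 1 quasi-likelihood fit with a mean per group over 8 libraries (4 residual degrees of freedom), two-sided. SEs were derived from the F statistic and are approximate. Steps were tested on simulated data. Members, lists and rules were chosen with earlier results of these data known. The rule names all members, the 2 genes most like each member, and the Dnmt genes. It allows up to 2 called genes of each list in each comparison, and not all of these are named here. Ep400 and Asf1b, each the 1 gene of its list called higher, and Aifm2 were added after their values were seen. Alternatives were other scalings, a length offset, no filter, DESeq2 1.42.0, a replicate block and leaving out each library.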

Additional observations from a re-analysis of the deposited data

How the results depend on the processing

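Each of the 45 log2 fold changes of the members was recomputed under 15 alternatives. Of these 675 values, 647 stayed on the same side of the threshold, 15 became called, 13 lost their call, and none of the called values changed sign, while 36 values that were not called did. The number of members called moved by more than 1.5 times in 3 comparisons. In the interaction it was 1 with no filter on low counts and 2 with DESeq2, against 0. Leaving out 1 library gave 0 to 1 members for TKO against wild type in DMSO, 1 to 2 in TSA and 0 to 1 for the interaction. Whether the replicate numbers mark a shared batch is not given in the sources used here. The deviations of same-numbered libraries correlated at 0.07 to 0.32 across genes, positive in every pair of groups. Over all genes, a replicate block called 406 higher and 227 lower in the interaction, against 139 and 74 without it. With the replicate block, 2 members were called in the interaction, H2afx (adjusted p = 0.0179) and H3f3b (adjusted p = 0.0322), 7 against 5 with TSA in wild type, and 3 against 2 for TKO in TSA, the added one being Cenpa (adjusted p = 0.0485). Without one library, the genotype difference in the H2afy2 share, 0.76 points with all 8, ran from -1.28 to 3.02 (unbalanced groups). No permutation test of shares passed the threshold under any alternative, and with so few libraries none could have. With 2 libraries a group, the cause of these changes was not tested, and H2afy2, at 81 to 98 counts in TSA, is the member with the least depth.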
